A study of Mus musculus with 4 samples.

Results

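Messenger RNA of 10 genes for immune checkpoint ligands, inhibitory receptors and suppressive ectoenzymes was examined in mouse tumour-associated macrophages, out of 54532 genes measured. The genes were taken by name: Cd274, Pdcd1lg2, Havcr2, Lgals9, Vsir, Pirb, Lilrb4a, Nt5e, Entpd1 and Il4i1. The macrophages had been sorted from glioblastoma xenografts as live CD45+ Gr1- CD11b+ cells and fall into 2 libraries with MK-8931, an inhibitor of the beta-secretase BACE1 also known as verubecestat, and 2 control libraries. The labels give the mice only as GBM mice, with no strain, age or immune status, so whether the host has T cells is not given in them. The protocol text describes glioma stem cells treated for 3 days with drug or vehicle, while the cell type entries name sorted macrophages, so how the drug reached the macrophages cannot be read from the labels. Nothing in the labels says that the libraries came from separate animals. The p-values therefore measure no more than how far these samples lie apart, and that spread may be technical.

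Checkpoint ligands are surface proteins that damp the activity of T cells and other lymphocytes when they bind receptors such as PD-1. Macrophages in tumours carry several of them, and also carry receptors of their own whose cytoplasmic tails recruit phosphatases and hold back activation. A further arm works by chemistry: CD39 and CD73 convert extracellular ATP to adenosine, and amino acid oxidases and dioxygenases deplete tryptophan or related amino acids and release immune-active breakdown products.

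Library totals lay between 18257930 and 20179875 counts, and 18258 to 20075 genes were detected per library. All 12 listed macrophage identity genes were detected, with Csf1r, the receptor for macrophage colony-stimulating factor, at 1581 and 1488 CPM (counts scaled to library size) with MK-8931 and 1617 and 1546 CPM in controls. Of these 12, 9 had a log2 fold change below 0, with a median of −0.14. Itgam, the gene of the gate marker CD11b, rose (0.75, adjusted p = 0.0485), while the complement genes C1qa, C1qb and C1qc stood at −0.60, −0.47 and −0.58 without passing (adjusted p = 0.270, 0.356 and 0.158). Natural killer cell markers were at or near 0, with Ncr1, Klrb1c, Nkg7 and Gzma at 0 in all 4 libraries, and the T cell genes Trbc2 and Cd8b1 were at 0 too. The 10 T cell markers summed to 28.2 and 30.7 CPM with MK-8931 and to 38.3 and 49.5 CPM in controls. Nearly all of that was Cd4, at 26.6 and 29.1 CPM with MK-8931 and 37.1 and 48.6 CPM in controls (−0.62, adjusted p = 0.196). The other 9 summed to 1.59 and 1.63 CPM with MK-8931 and to 1.24 and 0.919 CPM in controls. The 20 listed neutrophil markers summed to 821 and 1304 CPM with MK-8931 and to 174 and 163 CPM in controls, and 14 of the 15 tested rose, with Elane at 0 in all 4. Also too scarce to test were Ly6g (0 and 14 counts with MK-8931, 0 and 0 in controls) and Ngp (5 and 7, against 7 and 0). So were Camp (0 and 3, against 2 and 0) and Mpo (17 and 5, against 7 and 4). The 14 dendritic cell markers, none of them at 0 in all 4 libraries, summed to 58.5 and 61.9 CPM with MK-8931 and to 31.4 and 23.5 CPM in controls. Of these 14, 1 rose (Ccl22), and 13 had a log2 fold change above 0. The exception was Zbtb46, at 0.67 and 1.03 CPM with MK-8931 and 1.77 and 1.89 CPM in controls (−1.11, adjusted p = 0.606). Of the 10 monocyte markers, all detected, 6 rose, and the median log2 fold change was 1.64. Their sum was 6057 and 5646 CPM with MK-8931 and 5904 and 5510 CPM in controls, mostly from Fn1, the fibronectin gene. The other 9 summed to 525 and 625 CPM with MK-8931 and to 214 and 142 CPM in controls. The part of these other cells in the values below was not tested.

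Levels per gene length placed 8 of the 10 genes among the well-expressed ones. In FPKM, which scales counts to gene length and library size, the mean over the 4 libraries was 107 for Lgals9, 92.9 for Havcr2, 75.8 for Vsir, 53.4 for Lilrb4a, 42.0 for Cd274, 23.1 for Pirb, 19.5 for Entpd1 and 11.2 for Nt5e. Pdcd1lg2 at 0.282 FPKM and Il4i1 at 0.00991 FPKM stood far below. Lgals9 was higher than 96.8% of the 13932 genes tested, and Nt5e higher than 71.2%. The order was not firm throughout. The ranges over the 4 libraries overlapped between Lgals9 and Havcr2, between Havcr2 and Vsir, between Lilrb4a and Cd274 and between Pirb and Entpd1. Compared within a library, Lgals9 lay above Havcr2 and Lilrb4a above Cd274 in all 4. Havcr2 lay above Vsir in 3 libraries, and Pirb above Entpd1 in 3. The ranges of the other neighbours in the order did not overlap.

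**Figure D1:**
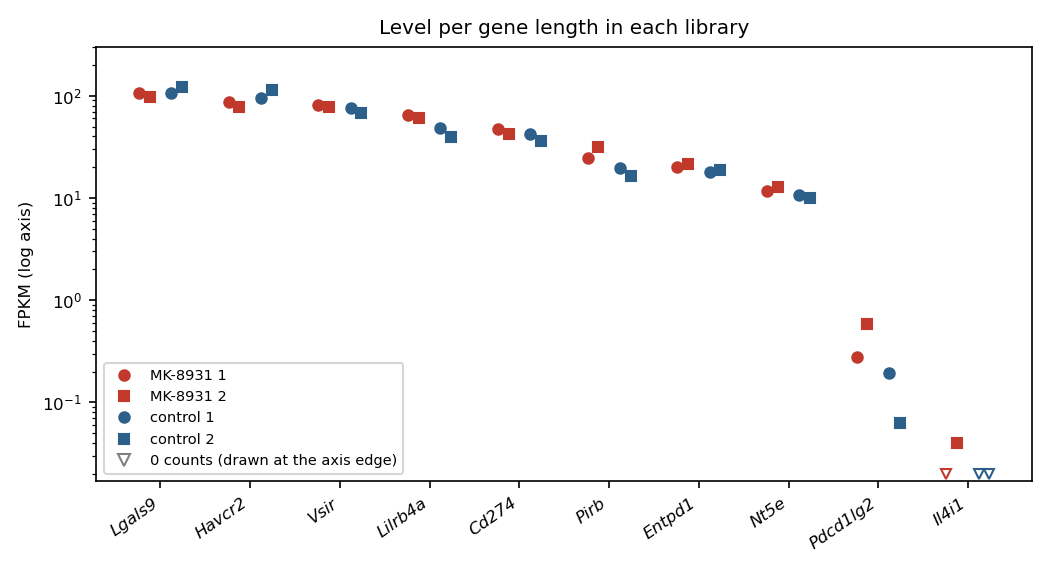
Level of each gene in FPKM (log axis) in each of the 4 libraries, MK-8931 in red and control in blue, with open triangles for libraries with 0 counts. The first 8 genes lie between 10.0 and 122 FPKM, Pdcd1lg2 lies below 0.6 FPKM, and Il4i1 has a value in a single library.

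Between MK-8931 and control, none of the 8 genes with enough counts to test passed an adjusted p of 0.05 in edgeR's quasi-likelihood test. So 0 rose and 0 fell, beside 0.861% of all 13932 tested genes that rose and 0.136% that fell. The largest differences were the higher values of Pirb and Lilrb4a, both inhibitory receptors, and the lower value of Havcr2, which encodes TIM-3. At an unadjusted p under 0.05 there were 2 higher (Pirb and Lilrb4a) and 1 lower (Havcr2), beside 6.53% and 4.25% of all genes tested. The median log2 fold change was 0.18 over the 8 and −0.00297 over all genes tested. With limma-voom and with limma-trend on FPKM 0 of the 8 passed, whereas DESeq2 called Pirb and Lilrb4a higher, beside 1.04% of all genes that it called higher. In the authors' deposited table both are below 0.05. The log2 fold change there is 0.63 (adjusted p = 0.0363) for Pirb and 0.52 (adjusted p = 0.0468) for Lilrb4a. Both log2 fold changes match those of DESeq2 on the same counts (0.630 and 0.523), so the deposited values are not separate support. Of the 22381 genes with a value in the authors' deposited table, 1.08% are higher at that threshold and 0.42% lower. In 5 of the 8 both MK-8931 libraries lay above both controls, and in 1 both lay below, beside 21.2% and 20.0% of all genes tested. In bulk samples, fewer cells that carry a transcript and less of it per cell cannot be told apart.

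**Figure D2:**
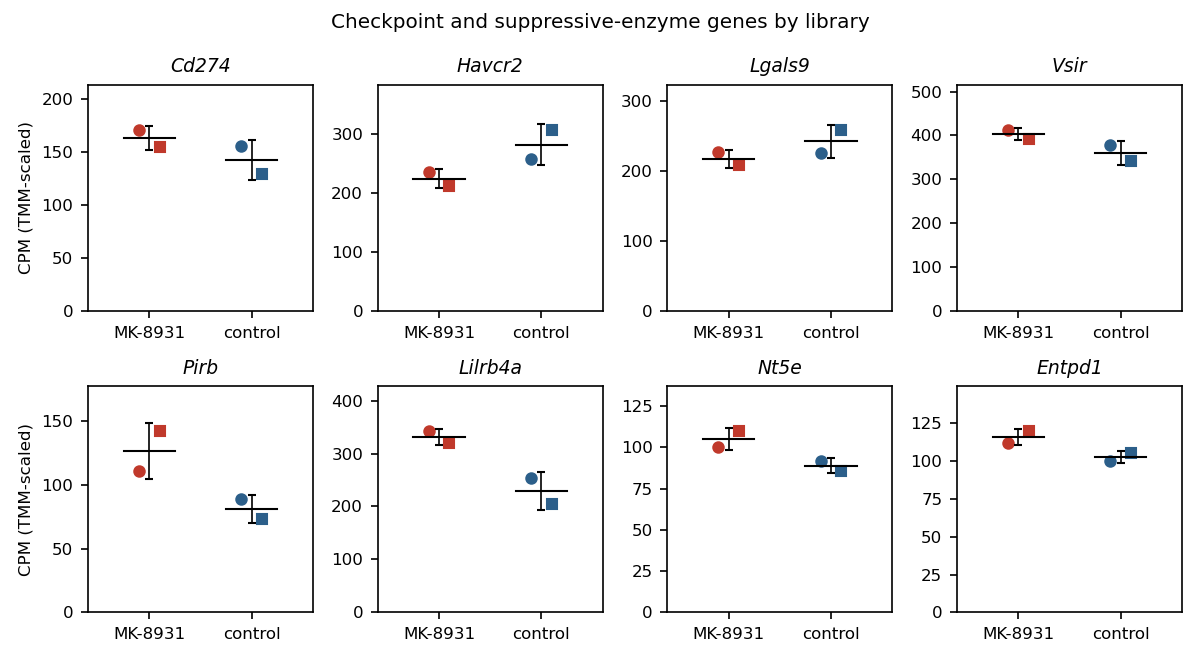
CPM of the 8 tested genes in each library (circle for replicate 1, square for replicate 2), with the mean (line) and SD (bar) of the 2 libraries of each group; axes start at 0. MK-8931 lies above control without overlap for Vsir, Pirb, Lilrb4a, Nt5e and Entpd1 and below it for Havcr2, while Cd274 and Lgals9 overlap.

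**Figure D3:**
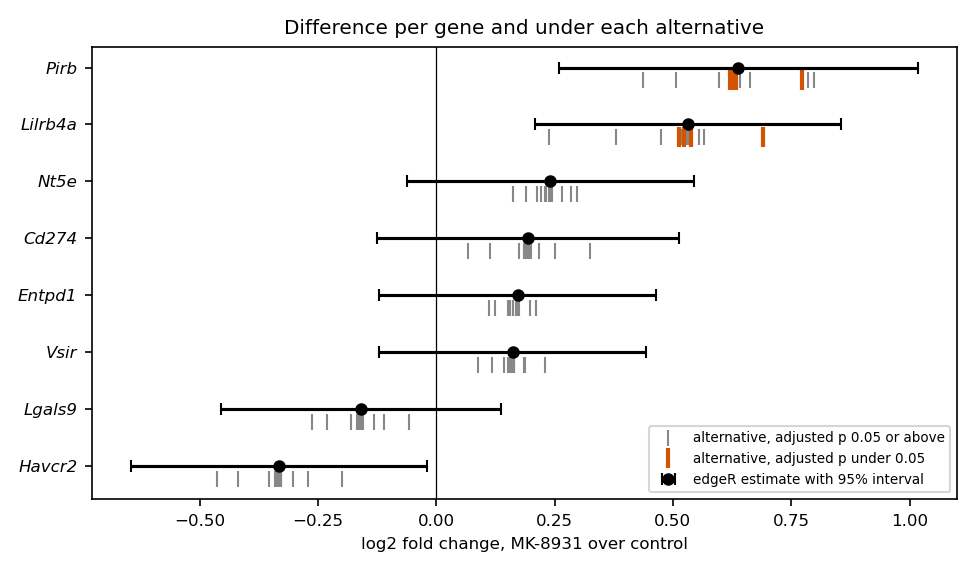
Log2 fold change of MK-8931 over control for the 8 tested genes (points, with 95% intervals from the edgeR fit) and under each of 14 alternatives (ticks; orange where the adjusted p is under 0.05). The orange ticks belong to Pirb and Lilrb4a, and no tick crosses 0.

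The ligands of PD-1 are PD-L1, encoded by Cd274 (chromosome 19, 29367455 to 29388095, plus strand, GRCm38), and PD-L2, encoded by Pdcd1lg2 (chromosome 19, 29410919 to 29471157, plus strand). The genes are neighbours, with RefSeq promoter windows 43481 bp apart, yet their levels were far from each other in each library. Cd274 had 171 and 155 CPM with MK-8931 and 155 and 129 CPM in controls, so the groups overlapped. Exons of a gene on the opposite strand, AC119228.1, overlap 14.1% of its exonic bases. Its log2 fold change was 0.19 (SE 0.14, adjusted p = 0.718), with a 95% interval of the fold from 0.917 to 1.43. Pdcd1lg2 had 9 and 18 counts with MK-8931 and 6 and 2 counts in controls, too few to pass the filter on low counts. Its pooled count rate was 3.46 times higher with MK-8931, with an exact 95% interval from 1.53 to 8.82 that covers counting error only, not the spread between libraries. Per gene length, Cd274 was 168 and 71.9 times Pdcd1lg2 in the MK-8931 libraries and 219 and 574 times it in the controls. As background, interferon-gamma is known to induce PD-L1 and interleukin-4 to induce PD-L2 in macrophages.

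The 250 bases before each RefSeq start are shown because these neighbouring genes sit at such different levels.
Cd274, chr19:29367188-29367437, plus strand: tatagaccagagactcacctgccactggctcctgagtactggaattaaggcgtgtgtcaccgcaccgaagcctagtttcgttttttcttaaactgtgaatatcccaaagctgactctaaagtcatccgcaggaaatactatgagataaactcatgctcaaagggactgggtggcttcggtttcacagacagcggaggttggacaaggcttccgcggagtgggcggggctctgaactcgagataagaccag
Pdcd1lg2, chr19:29410669-29410918, plus strand: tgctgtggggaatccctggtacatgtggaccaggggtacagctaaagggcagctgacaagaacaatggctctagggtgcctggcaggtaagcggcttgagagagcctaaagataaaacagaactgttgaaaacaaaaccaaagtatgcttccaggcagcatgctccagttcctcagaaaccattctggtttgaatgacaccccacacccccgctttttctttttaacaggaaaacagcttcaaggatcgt
Neither window held, on either strand, the letters searched for the interferon-stimulated response element (GAAA, any 2 bases, then GAAA, found in 2.98% of 32851 RefSeq promoter windows of this length), the interferon-gamma-activated site named GAS (TTCNNNGAA, 7.02%), PU.1, a factor of the macrophage lineage (GAGGAAGT, 2.44%), or AP-1 (TGANTCA, 6.75%).

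Of 16 other genes of the PD-1 ligand axis and its inducers, 15 were tested, 0 rose and 0 fell by edgeR. At an unadjusted p under 0.05, 4 were higher and 0 lower, beside 6.53% and 4.25% of all genes tested. The median log2 fold change was 0.09. Cd80, which encodes a costimulatory ligand that also binds PD-L1, had 8.71 and 9.45 CPM with MK-8931 and 4.79 and 2.14 CPM in controls (log2 fold change 1.39, SE 0.38, adjusted p = 0.177). Ifngr2, a chain of the interferon-gamma receptor, had 122 and 133 CPM with MK-8931 and 93.8 and 94.9 CPM in controls (0.44, SE 0.13, adjusted p = 0.209). In both genes the MK-8931 libraries lay above the controls, and without control 1 the log2 fold change of Cd80 was 2.07. In each fit without control 1, the lone control is assumed to vary like the MK-8931 pair, whose spread alone enters the test. Ifng itself, chosen after its value was seen, had 0 and 0 counts with MK-8931 and 1 and 0 counts in controls.

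TIM-3, encoded by Havcr2 (chromosome 11, 46454935 to 46481255, plus strand), is an inhibitory receptor of T cells that myeloid cells also carry, and galectin-9, encoded by Lgals9 (chromosome 11, 78962974 to 78984946, minus strand), is one of its ligands. Havcr2 had 236 and 213 CPM with MK-8931 and 257 and 307 CPM in controls. Both MK-8931 values lay below both controls. The log2 fold change of −0.33 (SE 0.14) gave an unadjusted p of 0.0400 and an adjusted p of 0.423 by edgeR, with a fold between 0.640 and 0.987 at 95%. Lgals9 had 227 and 208 CPM with MK-8931 and 226 and 259 CPM in controls. These groups overlapped, and the log2 fold change was −0.16 (SE 0.13, adjusted p = 0.757). The ratio of Havcr2 to Lgals9 in FPKM was 0.818 and 0.803 with MK-8931 and 0.894 and 0.932 in controls.

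The promoter windows of this receptor and ligand are shown with every match to those 4 motifs in capitals.
Havcr2, chr11:46454681-46454930, plus strand: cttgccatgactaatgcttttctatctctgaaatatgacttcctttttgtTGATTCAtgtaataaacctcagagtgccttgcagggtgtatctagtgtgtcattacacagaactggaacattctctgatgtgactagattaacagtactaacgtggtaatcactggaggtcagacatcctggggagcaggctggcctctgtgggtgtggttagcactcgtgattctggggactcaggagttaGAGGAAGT
Lgals9, chr11:78984925-78985174, minus strand: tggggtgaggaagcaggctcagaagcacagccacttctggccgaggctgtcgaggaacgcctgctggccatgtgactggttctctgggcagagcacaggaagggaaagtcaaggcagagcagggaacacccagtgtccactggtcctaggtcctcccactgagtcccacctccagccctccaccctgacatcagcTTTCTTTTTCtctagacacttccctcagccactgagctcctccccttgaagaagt
In Havcr2 the capitals are a match to the AP-1 letters as searched, 200 to 194 bases upstream of the start, and a PU.1 match in the last 8 bases before it. Those AP-1 letters (TGANTCA) allow any base in the middle, here T, so the match is a loose one. In Lgals9 they are 1 match to the interferon-stimulated response element, on the other strand, 55 to 46 bases upstream. A match describes the letters of the window and not a bound site.

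Of 10 other TIM and galectin genes, 8 were tested, 0 rose and 0 fell by edgeR, and 0 reached an unadjusted p of 0.05. Lgals3, the galectin-3 gene, had 1449 and 1750 CPM with MK-8931 and 1741 and 2472 CPM in controls (log2 fold change −0.40, SE 0.18, adjusted p = 0.491). Without control 1 its log2 fold change was −0.64. Hmgb1, a nuclear protein that TIM-3 binds when it is released from cells, had 176 and 206 CPM with MK-8931 and 211 and 260 CPM in controls (−0.30, SE 0.15, adjusted p = 0.544). The control values of Lgals3 overlap those with MK-8931, and those of Hmgb1 lie above them. Timd2, another member of the TIM family, was at 0 counts in all 4 libraries.

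VISTA, encoded by Vsir (chromosome 10, 60346851 to 60372684, plus strand), is an inhibitory protein of the B7 family that is abundant on myeloid cells. It had 413 and 393 CPM with MK-8931 and 379 and 341 CPM in controls. The MK-8931 values lay above the controls by a small margin, and the log2 fold change was 0.16 (SE 0.12, adjusted p = 0.738), with a fold between 0.920 and 1.36 at 95%. Of 3 genes for proteins that VISTA is reported to bind or be modulated by, 2 were tested, and 0 rose and 0 fell by edgeR, with 0 at an unadjusted p under 0.05. Selplg, the gene of PSGL-1, had 207 and 209 CPM with MK-8931 and 178 and 180 CPM in controls (0.22, SE 0.12, adjusted p = 0.586). Lrig1 was scarce, at 19 and 28 counts with MK-8931 and 14 and 4 counts in controls (1.38, SE 0.86, adjusted p = 0.663).

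PIR-B and LILRB4 are inhibitory receptors of myeloid cells whose tails carry immunoreceptor tyrosine-based inhibition motifs (ITIMs), which recruit the phosphatases SHP-1 and SHP-2. Their genes had the largest log2 fold changes among the 8 tested. Pirb (chromosome 7, 3711409 to 3720391, minus strand) had 111 and 142 CPM with MK-8931 and 88.8 and 73.5 CPM in controls. Lilrb4a (chromosome 10, 51490956 to 51496611, plus strand) had 342 and 320 CPM with MK-8931 and 254 and 204 CPM in controls. For both, the MK-8931 libraries lay above the controls. The log2 fold change of Pirb was 0.64 (SE 0.17, adjusted p = 0.145), a fold of 1.56 with a 95% interval from 1.20 to 2.02. That of Lilrb4a was 0.53 (SE 0.14, adjusted p = 0.161), a fold of 1.45 with an interval from 1.15 to 1.81. Both genes passed without control 1, in a fit whose spread comes from the MK-8931 pair alone, the closer of the 2 pairs. In that fit the adjusted p was 0.00290 for Pirb, at a log2 fold change of 0.77, and 0.00327 for Lilrb4a, at 0.69, beside 3.5% of all genes called higher there. Without each of the other libraries in turn neither gene passed. Leaving out control 2 gave log2 fold changes of 0.51 (SE 0.18) for Pirb and 0.38 (SE 0.16) for Lilrb4a. Both genes passed with no filter on low counts, where 1.55% of all genes were called higher, and under a replicate block, where 3.36% were. Neutrophil markers, 14 of 15 tested, and monocyte markers, 6 of 10, rose in the same libraries, and the part of either was not tested.

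The promoter window of Pirb is shown because it belongs to the gene with the largest difference.
Pirb, chr7:3720383-3720632, minus strand: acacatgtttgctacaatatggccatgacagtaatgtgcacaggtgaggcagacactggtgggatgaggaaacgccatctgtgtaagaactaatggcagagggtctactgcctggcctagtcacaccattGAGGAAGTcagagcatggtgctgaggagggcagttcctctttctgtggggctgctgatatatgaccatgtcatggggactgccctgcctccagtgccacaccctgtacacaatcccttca
The capitals are a PU.1 match, 120 to 113 bases upstream of the start. The RefSeq table held promoter windows for 9 of the 10 genes.

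Both receptors belong to clusters of near-identical genes, and which copy a read was assigned to is uncertain. Of the 50-base words in Pirb transcripts, 34.0% also occur in transcripts of other genes, and for Lilrb4a the share is 46.7%. The 3 genes of the paired receptor cluster that share such words with Pirb, among those looked at after their values were seen, were higher with MK-8931. Gm14548, which shares 17.7% of the words of Pirb, had 23.2 and 21.4 CPM with MK-8931 and 9.90 and 6.28 CPM in controls and rose (log2 fold change 1.46, SE 0.25, adjusted p = 0.0359). Pira2, an activating receptor gene of the cluster, had 6.35 and 7.93 CPM with MK-8931 and 3.82 and 3.06 CPM in controls (1.05, SE 0.31, adjusted p = 0.216). Lilra6 had 11.3 and 19.1 CPM with MK-8931 and 7.69 and 5.36 CPM in controls (1.22, SE 0.31, adjusted p = 0.142). In none of these 3 did the groups overlap. Summed to 1 value, these 3 and Pirb had 152 and 190 CPM with MK-8931 and 110.3 and 88.2 CPM in controls. Their log2 fold change was 0.78 (SE 0.16, adjusted p = 0.0725). Lilra5, also looked at, shares 0% of the words of Pirb and was higher with MK-8931 too. It had 2.56 and 4.51 CPM with MK-8931 and 1.77 and 1.53 CPM in controls (1.09, SE 0.46, adjusted p = 0.437).

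Lilr4b, as the table spells the gene of LILRB4B, a related receptor, shares 26.1% of the words of Lilrb4a. Lilr4b had 729 and 816 CPM with MK-8931 and 711 and 701 CPM in controls (log2 fold change 0.13, SE 0.12, adjusted p = 0.806). Gm49339, a predicted gene that overlaps 35.3% of the exonic bases of Lilrb4a on the same strand, shares 33.7% of the words of Lilrb4a and had 1 and 2 counts with MK-8931 and 2 and 2 counts in controls. Summed over these 3 genes, the locus had 1071 and 1136 CPM with MK-8931 and 965 and 905 CPM in controls. On the log2 scale the sum was 0.24 higher (SE 0.12, adjusted p = 0.552), and Lilrb4a by itself 0.53 higher. Lilr4b supplies most of the sum, so a smaller log2 value follows from adding it, and the sum does not show how reads were split.

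**Figure D4:**
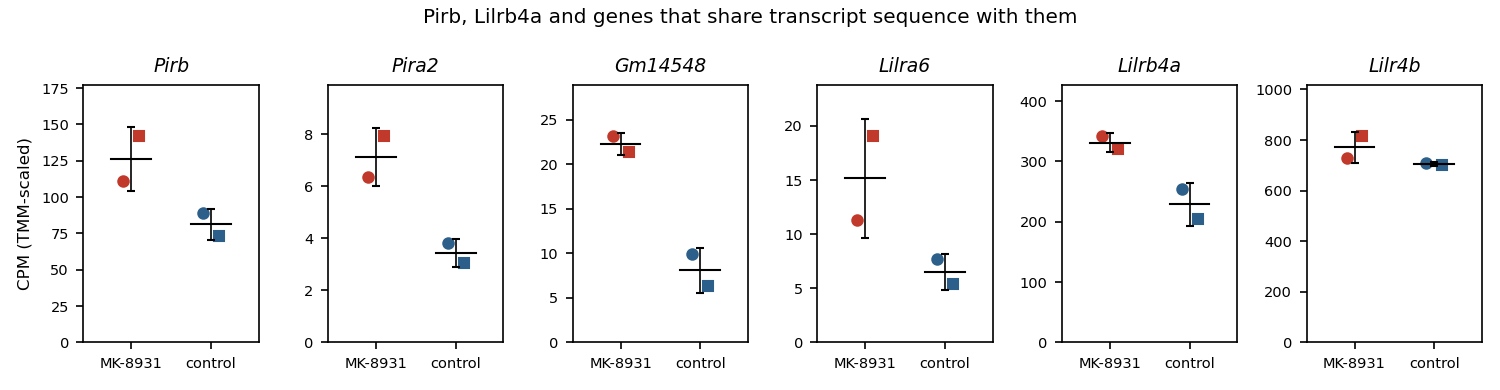
CPM in each library (circle for replicate 1, square for replicate 2; line and bar for mean and SD) of Pirb with 3 genes that share transcript sequence with it, and of Lilrb4a with its neighbour Lilr4b; axes start at 0. The 3 genes beside Pirb lie higher with MK-8931 without overlap, and Lilr4b lies above its controls by a small margin.

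Among 21 other ITIM receptors and signalling genes, 18 were in the table and tested, 0 rose and 0 fell by edgeR. At an unadjusted p under 0.05, 8 were higher and 0 lower, beside 6.53% and 4.25% of all genes tested. The median log2 fold change was 0.11. Ptpn6, which encodes SHP-1, had 254 and 306 CPM with MK-8931 and 192 and 211 CPM in controls (0.47, SE 0.14, adjusted p = 0.204). Both MK-8931 libraries were above both controls. Other effectors, chosen after their values were seen, were close to even, with log2 fold changes of 0.00 (0.00192, adjusted p = 0.998) for Ptpn11, the gene of SHP-2, and −0.06 (adjusted p = 0.938) for Inpp5d, the gene of the phosphatase SHIP-1.

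CD39, encoded by Entpd1 (chromosome 19, 40612366 to 40741602, plus strand), removes phosphates from ATP and ADP, and CD73, encoded by Nt5e (chromosome 9, 88327197 to 88372092, plus strand), turns the resulting AMP into adenosine. Entpd1 had 112 and 119 CPM with MK-8931 and 99.9 and 105 CPM in controls. Nt5e had 100.3 and 109.8 CPM with MK-8931 and 92.0 and 85.7 CPM in controls. Both genes lay slightly higher with MK-8931 without overlap. The log2 fold change was 0.17 for Entpd1 (SE 0.13, adjusted p = 0.727) and 0.24 for Nt5e (SE 0.13, adjusted p = 0.597). The 95% interval of the fold ran from 0.920 to 1.38 for Entpd1 and from 0.958 to 1.46 for Nt5e. Per gene length, Entpd1 was 1.72 and 1.68 times Nt5e with MK-8931 and 1.67 and 1.90 times it in controls, so the balance of the pair overlapped between groups.

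Of 21 other genes of extracellular nucleotides and adenosine, 16 were tested, and 0 rose and 0 fell by edgeR. At an unadjusted p under 0.05, 1 was higher and 2 lower, beside 6.53% and 4.25% of all genes tested. The median log2 fold change was 0.13. P2ry12, an ADP receptor typical of microglia, had 65.3 and 62.9 CPM with MK-8931 and 89.2 and 114 CPM in controls (−0.66, SE 0.16, adjusted p = 0.113). Enpp1, an ectoenzyme that cleaves ATP to AMP, had 126 and 106 CPM with MK-8931 and 149 and 165 CPM in controls (−0.44, SE 0.14, adjusted p = 0.260). Both were below the controls in each MK-8931 library. Without control 1 the log2 fold change was −0.84 for P2ry12 and −0.52 for Enpp1. Adora2a, an adenosine receptor gene chosen after its value was seen, had 45 and 28 counts with MK-8931 and 12 and 13 counts in controls (1.54, SE 0.65, adjusted p = 0.437).

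Il4i1 (chromosome 7, 44816387 to 44840809, plus strand) encodes a secreted oxidase of aromatic amino acids whose products can activate the aryl hydrocarbon receptor. It had 0 and 3 counts with MK-8931 and 0 and 0 counts in controls. A count of 0 allows a level of up to 0.149 to 0.163 CPM in the libraries without a read, so no fold is given, and these limits cover counting error only. Exons of Tbc1d17, on the opposite strand, overlap 83.9% of its exonic bases. In all, exons of 3 genes overlap those of Il4i1. Whether the counting used strand is not given in the sources used here, so the 3 counts cannot be assigned to Il4i1 with certainty. The limits above also do not cover Il4i1 reads that were left uncounted or given to an overlapping gene.

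Ido1, the interferon-induced dioxygenase of tryptophan, had 0 and 0 counts with MK-8931 and 0 and 1 counts in controls, a value looked up after it was seen. Of 19 genes of tryptophan breakdown and the aryl hydrocarbon receptor, 15 were tested, and 0 rose and 0 fell by edgeR. At an unadjusted p under 0.05, 2 were higher and 0 lower, beside 6.53% and 4.25% of all genes tested. The median log2 fold change was 0.22. Kmo, kynurenine monooxygenase and also a listed dendritic cell marker, had 5.48 and 5.27 CPM with MK-8931 and 2.80 and 1.89 CPM in controls (1.20, SE 0.36, adjusted p = 0.230). Cyp1b1, a target gene of the receptor, had 6.71 and 10.2 CPM with MK-8931 and 5.97 and 3.01 CPM in controls (0.91, SE 0.38, adjusted p = 0.435). The MK-8931 libraries lay above the controls for both. Without control 1 the log2 fold change of Cyp1b1 was 1.47.

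Of 26 other checkpoint and costimulatory genes, 15 were tested, and 0 rose and 0 fell by edgeR. At an unadjusted p under 0.05, 4 were higher and 2 lower, beside 6.53% and 4.25% of all genes tested. The median log2 fold change was 0.12. The gene nearest the threshold was Cd276, which encodes the B7-family protein B7-H3, with 88.2 and 88.5 CPM with MK-8931 and 132 and 147 CPM in controls (−0.66, SE 0.13, adjusted p = 0.0574). Its MK-8931 libraries lay below both controls, and with all 4 libraries it passed in DESeq2 (−0.67, adjusted p = 0.00283) and with no filter on low counts (−0.68, adjusted p = 9.08e-04). Without control 1 its log2 fold change was −0.75, again with the spread of the MK-8931 pair alone. Cd200, the ligand of the inhibitory receptor CD200R1, had 4.15 and 4.24 CPM with MK-8931 and 0.914 and 0.255 CPM in controls (2.84, SE 0.60, adjusted p = 0.0760). It was above the controls in both libraries, and without control 1 its log2 fold change was 4.00. The dendritic cell markers were higher in sum in the same libraries, though only 1 of the 14 passed and Zbtb46 was lower. Their part was not tested. Vtcn1, Fgl1 and Cd70, genes of other checkpoint or costimulatory ligands, were at 0 counts in all 4 libraries.

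Over the 7 lists together 89 genes were tested, and 0 passed by edgeR, limma-voom or limma-trend, beside 0.861% of all genes that rose and 0.136% that fell by edgeR. DESeq2 called 2 of them higher, Cd200 among them, and 2 lower, Cd276 and P2ry12. Over all 23654 genes it called 246 higher (1.04%) and 98 lower. At an unadjusted p under 0.05 in edgeR, 19 of the 89 were higher and 4 lower, beside 6.53% and 4.25% of all genes tested. Both MK-8931 libraries lay above both controls in 36 of the 89 and below in 14, beside 21.2% and 20.0% of all genes tested. The plot of log2 fold changes by list shows the spread within each.

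**Figure D5:**
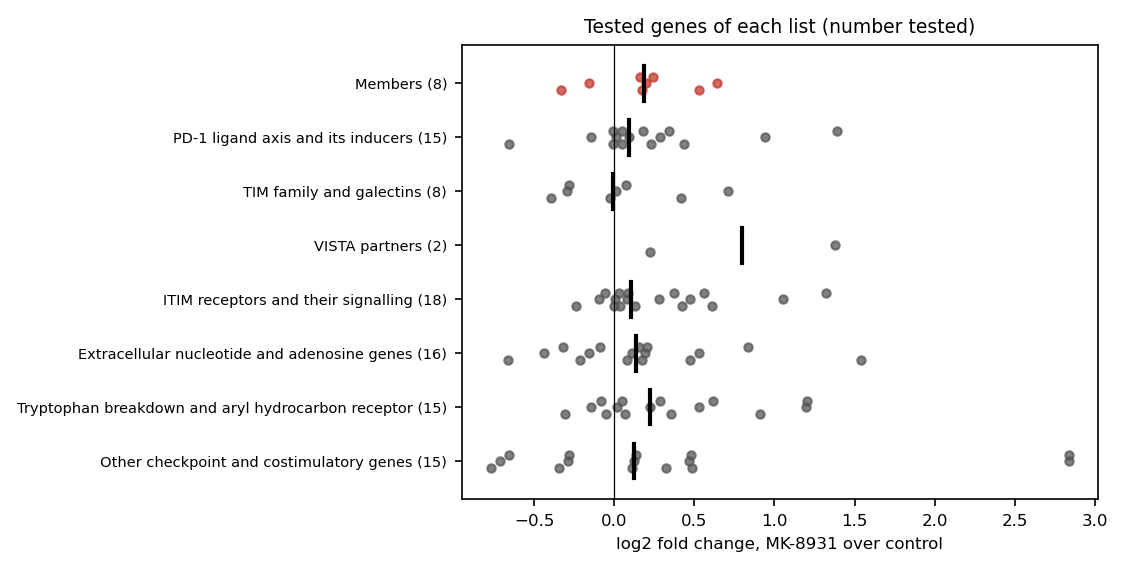
Log2 fold change of MK-8931 over control for each tested gene (points) of the 10 named genes and of the 7 pathway lists, with the list median as a bar and the number tested in brackets. Medians lie between −0.01 and 0.22 except for the 2 VISTA partners at 0.80, and the points farthest right are Cd200 and Btla at 2.84.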

How the data were processed

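The deposited table gives, per the file headers, an unnormalized whole-number count for each gene and library. FPKM values in it were made by the authors and equal the count over gene length times 1 constant per library, within 0.1%. The submitters' processing notes name CASAVA and mm9, but 98.3% of 54409 shared gene identifiers have the coordinates of GRCm38 in GENCODE M21, so coordinates are given as GRCm38. Which aligner and counter were used, and whether strand was, is not given in the sources used here. The authors' deposited table also holds their log2 fold change and adjusted p-value, with no test named. Its log2 fold changes for Pirb and Lilrb4a match those of DESeq2 here.

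The test was edgeR 4.0.16 (R 4.3.3): filterByExpr (minimum count 10) kept 13932 genes, TMM factors were 0.971 to 1.01, and the quasi-likelihood F test was two-sided, with p-values adjusted by Benjamini-Hochberg across every gene tested. CPM values are TMM-scaled. SEs are the log2 fold change over the square root of F, and intervals use the fit's degrees of freedom. The test was checked on simulated counts. Alternatives used DESeq2 1.42.0, limma 3.58.1, other scalings and filters, a replicate block and each library left out. No library was a copy of another: counts of the 2 replicates gave a chi-square of 17.1 per degree of freedom with MK-8931 and 29.7 in controls. The labels name no batch. The 10 genes and all lists were chosen with earlier results of these data known. From each list the text names genes past the threshold or, failing that, the 2 of smallest p; others are marked, and 1 gene that the rule names is not reported here. Of 116 listed pathway genes 113 were in the table. Promoter sequences are from RefSeq, GRCm38.p6.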

Additional observations from a re-analysis of the deposited data

How the results depend on the processing

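Over 14 alternatives for each of the 8 tested genes, 104 of 112 values kept their direction and their side of the threshold, 8 came to pass it and 0 reversed. The 8 are Pirb and Lilrb4a, called in the same 4 settings. The count of the 10 genes called, 0 in the fit described, was 2 with DESeq2, with no filter on low counts and with the replicate block, and 0 to 2 with 1 library left out, the 2 being without control 1. The log2 fold change ranged from 0.44 to 0.80 for Pirb and from 0.24 to 0.69 for Lilrb4a, whose lowest value was that with near-identical copies summed, an alternative chosen after seeing the data. Havcr2 ranged from −0.46 to −0.20 (adjusted p from 0.0698 to 0.910). For the pathway lists the count called, also 0, was 6 with no filter, 4 with DESeq2, 14 with the replicate block, and 0 to 12 with 1 library left out (12 without control 1 and 1 without control 2). For all genes the count called, 139, was 542 with no filter, 344 with DESeq2, 59 and 56 with limma-trend on log2(FPKM + 1) and log2(FPKM + 0.1), 743 with the replicate block, and 95 to 763 with 1 library left out, 763 being without control 1 and 221 without control 2. With 1 library left out, the lone library of its group is assumed to vary like the other pair. The cause of these shifts was not tested. The groups share replicate numbers, but no label says that a number marks a shared animal or day, and the deviations of same-numbered libraries correlated at 0.197 over 13932 genes in only 2 pairs. The replicate block gave Pirb an adjusted p of 0.0302 and Lilrb4a 0.00476. Low counts limit what can be said of Pdcd1lg2 and Il4i1, whose counts reached 18 and 3 at most. The reason for these low counts was not tested.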
